A study of Mus musculus with 10 samples.

Results

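Immunoglobulin genes were followed probe by probe in 10 spontaneous lymphomas of the mouse. The set was every non-control probe of the array whose gene name begins with Igh, Igk or Igl, or whose description names an immunoglobulin heavy, kappa or lambda chain; Ighmbp2, Igll1 and Igj, which are not chain segments, were excluded by name. The words matched 119 probes; 3 went out by name (Ighmbp2 and Igll1), 2 more (Rbpj and Rbpjl) are not chain segments, and 114 probes under 86 gene names stayed, of 41174 probes under 27827 names. The names and the annotated positions put 15 probes in heavy chain constant regions, 3 in lambda constant regions, 1 in the heavy chain joining segments, 43 in heavy chain variable (VH) segments, 46 in kappa variable (VK) segments and 6 in lambda variable segments. No member carried the name of the kappa constant region. Of the 114 probes, 112 passed the filter on dim signals (clearly over background, by the scanner software's flag, in 3 or more of the 10 tumours, with no outlier flag); 1 probe of IGKV1-99 was too dim and 1 of IGKV10-94 had an outlier flag. Of the 112, 78 were well above background on all 10 arrays.

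The tumours came from 5 mice heterozygous for the C/EBPβ LIP allele (+/L; mice 20, 866, 688, 23 and 517, aged 21, 11, 18, 20 and 20 months) and from 5 wild-type mice (+/+; mice 40, 11, 101, 17 and 19, aged 26, 29, 26.5, 20 and 23 months). LIP is the shortest isoform of the transcription factor C/EBPβ and lacks most of its activating part. Mice of both genotypes were kept in a pathogen-free facility and watched for lymphoma, and total RNA of a frozen piece of each tumour was hybridised to 1 single-colour array. The allele is carried throughout the body, so the tumour cells and the other cells of a piece share it, and the labels name no lymphoma type.

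Per array, 48.0% to 66.7% of non-control spots exceeded background clearly, and 0 were saturated. The array of +/L 20 stood apart over all probes, and Xist was above background with no Y-linked gene in 2 mice labelled male, +/L 20 and +/+ 11. The description label and the file give different slides for +/L 866 and +/+ 17. The number of leads, the members' median genotype difference and the differences of the member probes of lowest p are also given below without these arrays. Other genotype differences are given for all 10 arrays only. The B cell receptor genes Cd79a and Cd79b were well above background on all 10 arrays, as was the T cell gene Cd3d, so each piece held RNA of both lineages. In a piece of tumour, fewer B cells and less immunoglobulin RNA per cell cannot be told apart.

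Each B cell joins 1 VH segment to diversity and joining segments, and 1 VK or lambda variable segment to a joining segment, so that its descendants all transcribe the same pair. The heavy chain first uses the constant regions μ and δ, and class switching replaces them with γ, ε or α. A normal lymphoid tissue transcribes many variable segments, whereas an expanded B cell clone adds RNA of a single pair, and plasma cells hold far more immunoglobulin RNA than other B cells. A segment that stands out in 1 tumour is therefore commonly read as a sign of clonality, and is described here as a level only. Clonality itself was not tested.

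The array sequences of the segments on which the results below turn are shown first, 5′ to 3′, with the mm9 position that the files give them. Capitals mark the longest run of bases that a sequence shares with a second probe, which is the next line unless stated otherwise. All lie in variable segments, whose family members resemble each other, so a probe can also take up RNA of a related segment.

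The first pair, with the 25 shared bases in capitals, is IGHV3-8 (chr12:115560614-115560673, minus strand) and a probe outside the set that the files annotate as a rearranged heavy chain variable region (chr12:115272062-115272121, minus strand). The IGHV3-6 sequence (chr12:115526464-115526523, minus strand) shares no run longer than 6 bases with IGHV3-8. All 3 were highest in +/L 20.
IGHV3-8 (A_52_P572554): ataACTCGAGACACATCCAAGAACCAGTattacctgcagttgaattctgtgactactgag
ENSMUST00000109712 (A_51_P244396): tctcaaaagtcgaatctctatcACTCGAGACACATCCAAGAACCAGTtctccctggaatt
IGHV3-6 (A_52_P311042): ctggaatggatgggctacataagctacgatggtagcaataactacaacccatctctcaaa

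IGKV12-41 has 2 probes, at chr6:69808423-69808480 and chr6:69808570-69808629 on the minus strand, which share no run longer than 5 bases and so read different parts of the segment. Capitals in the first mark 38 bases in common with X67192, a probe outside the set. Both IGKV12-41 probes were highest in +/L 23.
IGKV12-41 (A_51_P343336): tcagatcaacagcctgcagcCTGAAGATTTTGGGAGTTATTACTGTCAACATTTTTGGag
IGKV12-41 (A_51_P444502): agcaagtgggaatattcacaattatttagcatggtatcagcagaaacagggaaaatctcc

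IGHV5-17 (chr12:115097549-115097608, minus strand) and IGHV5S24 (chr12:115000655-115000714, minus strand) share a run of 43 bases, and 50 of 56 aligned bases match. Igkv14-111 (chr6:68206771-68206830, plus strand) and a probe that the files assign to IGKV10-95 and IGKV10-94 (chr6:68630763-68630822, plus strand) share 22 bases, and 39 of 47 aligned bases match. IGHV5-17 and Igkv14-111 stood out in +/+ 11.
IGHV5-17 (A_51_P275642): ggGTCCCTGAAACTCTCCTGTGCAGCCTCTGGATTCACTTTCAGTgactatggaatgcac
IGHV5S24 (A_52_P426100): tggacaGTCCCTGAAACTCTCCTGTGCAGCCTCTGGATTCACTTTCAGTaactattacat
Igkv14-111 (A_51_P390937): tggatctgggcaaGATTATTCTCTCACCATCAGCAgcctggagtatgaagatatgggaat
IGKV10-95;IGKV10-94 (A_52_P544435): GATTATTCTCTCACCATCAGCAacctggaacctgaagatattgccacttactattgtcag

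IGKV8-16 (chr6:70336871-70336930, minus strand) was highest in +/+ 19. IGKV1-133 (chr6:67675577-67675636, plus strand) and IGKV1-132 (chr6:67710344-67710403, plus strand), both highest in +/+ 17, share 21 bases in 1 run, and 43 of 45 aligned bases match. The last pair are 2 overlapping probes named Igl-V1 (chr16:19085232-19085291 and chr16:19085268-19085327, minus strand), whose 24 shared bases are the overlap, and which parted in +/+ 101.
IGKV8-16 (A_52_P400905): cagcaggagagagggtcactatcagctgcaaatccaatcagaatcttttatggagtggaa
IGKV1-133 (A_51_P414879): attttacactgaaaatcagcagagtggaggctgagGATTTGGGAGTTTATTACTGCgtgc
IGKV1-132 (A_52_P765764): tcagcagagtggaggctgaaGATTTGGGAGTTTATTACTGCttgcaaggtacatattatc
Igl-V1 (A_52_P829408): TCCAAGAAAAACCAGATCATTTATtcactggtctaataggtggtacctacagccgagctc
Igl-V1 (A_52_P672903): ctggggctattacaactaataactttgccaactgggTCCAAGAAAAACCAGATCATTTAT

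Immunoglobulin probes differed far more between tumours than most probes of the array. A level is the log2 processed signal minus the 75th percentile of its array, so a level of 0 is a signal equal to that percentile. The SD of the level over the 10 tumours had a median of 2.44 over the 112 members (range 1.03 to 3.90), against 0.563 over all 26409 probes that passed the filter, and 0.863% of all probes had an SD at or above the members' median. Because signals of different probes cannot be set against each other, a tumour is described below by its deviation, its level minus the median level of the same probe over the 10 tumours. A probe is called led by 1 tumour where that tumour was well above background and at least 2 log2 units (4-fold) above the next highest tumour.

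By that rule 17 of the 112 members (15.2%) were led by 1 tumour, beside 4.41% of all probes (1164 of 26409). Of the 1164, 966 were led by +/L 20. Without that tumour, 14 members (12.5%) and 1.28% of all probes were led. The number was 13 without mice 20 and 11 (1.29% of all probes) and 13 without mice 866 and 17 (5.13% of all probes). The leaders were +/+ 40 for 6 members, +/+ 17 for 4, +/L 20 for 3, +/L 23 for 2, and +/+ 11 and +/+ 19 for 1 each. +/L 866, +/L 688, +/L 517 and +/+ 101 led none. Of all probes, +/+ 40 led 0.053%, +/+ 17 0.038%, +/L 20 3.66%, +/L 23 0.223%, +/+ 11 0.053% and +/+ 19 0.027%. For +/L 20 the share of members led was thus not above its share of all probes. Variable segments made up 13 of the 17, out of 43 VH, 44 VK and 6 lambda variable probes kept. Constant regions made up 4, out of 15 heavy chain and 3 lambda probes. The lead closest above the threshold was 2.01 (IGKV3-1 in +/+ 40), and the closest below were 1.94 (IGKV1-35 in +/+ 17) and 1.86 (IGKV4-63 in +/L 517). The number depended on which tumours were compared: without +/+ 40 it was 23 (4.67% of all probes), of which 10 were led by +/L 517. That tumour lay above the probe median in all 112 members, so these 10 leads do not single out segments.

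**Figure D1:**
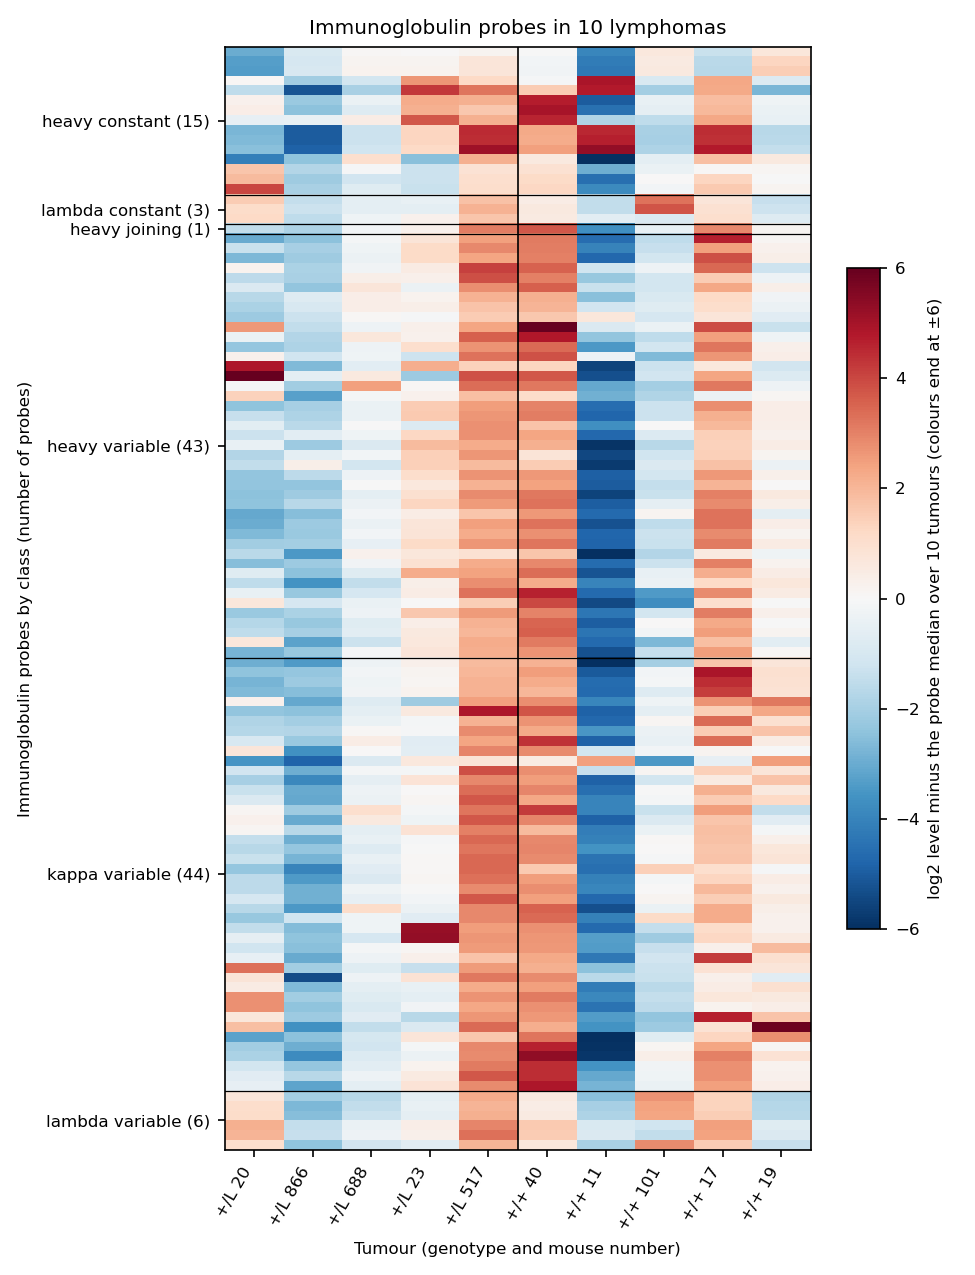
Deviation of each of the 112 immunoglobulin probes (rows, grouped by class) in each tumour (columns, +/L left of the line and +/+ right of it), as log2 level minus the probe's median over 10 tumours, with colours ending at ±6. Whole columns differ in shade, +/+ 40 and +/L 517 high and +/+ 11 low, and single cells break the shade of their column, such as IGHV3-8 in +/L 20.

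The heavy chain constant regions separated the tumours by isotype. The 3 probes of μ, the region of the first antibody class, were highest in +/L 20, with a mean deviation of +2.53, and lowest in +/+ 11, at -3.76. In A_51_P485421 (IGHM) the levels were 9.24, 3.31, 4.53, 3.92 and 6.29 in +/L 20, 866, 688, 23 and 517 and 6.49, 1.43, 5.08, 6.84 and 5.43 in +/+ 40, 11, 101, 17 and 19. +/L 20 led this probe by 2.41, whereas its lead in the other μ probes was 0.77 (A_52_P358360, named Igh-6) and 0.62 (A_52_P571419). δ, which is spliced from the same transcripts as μ in resting B cells, went the other way in +/L 20: its 1 probe (A_51_P266248, IGHD) deviated by -4.11 there, by -6.22 in +/+ 11 and by at most +2.14 (+/L 517).

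The 3 γ1 probes (X87228) differed widely between tumours. γ1 is a switched class, and these probes, like those of α and γ2b, were assigned by their place among named neighbours in the order of the heavy chain locus. In A_51_P461067 the levels were 2.02, -0.35, 3.35, 5.95 and 9.09 in +/L 20, 866, 688, 23 and 517 and 6.90, 9.33, 2.66, 9.05 and 3.03 in +/+ 40, 11, 101, 17 and 19. +/+ 11, +/L 517 and +/+ 17 were thus close together at the top, with mean deviations of +4.82, +4.67 and +4.54, so none of them led. The lowest was +/L 866, at -4.96.

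γ2c and γ2b were highest in +/+ 40. The levels of the γ2c probe A_51_P351953 (IGHG2C) were 1.77, -1.11, 0.58, 3.49 and 2.98 in +/L 20, 866, 688, 23 and 517 and 6.30, -3.10, 0.81, 3.30 and 0.95 in +/+ 40, 11, 101, 17 and 19. +/+ 40 led both γ2c probes, by 2.81 and 2.48, with a mean deviation of +4.82. For γ2b (A_52_P74106, named Ighg) +/+ 40 at +4.58 was followed by +/L 23 at +3.73, a gap of 0.85.

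ε, the class of mast cell-bound antibodies, was highest in +/+ 11 (mean deviation +4.81) and next in +/L 23 (+3.46). Its probe A_52_P15658 had levels of -2.87, -5.04, -4.06, -0.28 and -1.76 in +/L 20, 866, 688, 23 and 517 and -3.01, 1.94, -3.87, -0.64 and -3.76 in +/+ 40, 11, 101, 17 and 19, a lead of 2.22 for +/+ 11. In the other ε probe (A_51_P140829) +/+ 11 was highest by 0.48, so the lead depends on the probe. α, the class of mucosal antibodies, varied least upward: +/+ 19 was highest at +1.15, and +/+ 11 and +/L 20 were lowest at -4.13 and -3.20.

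**Figure D2:**
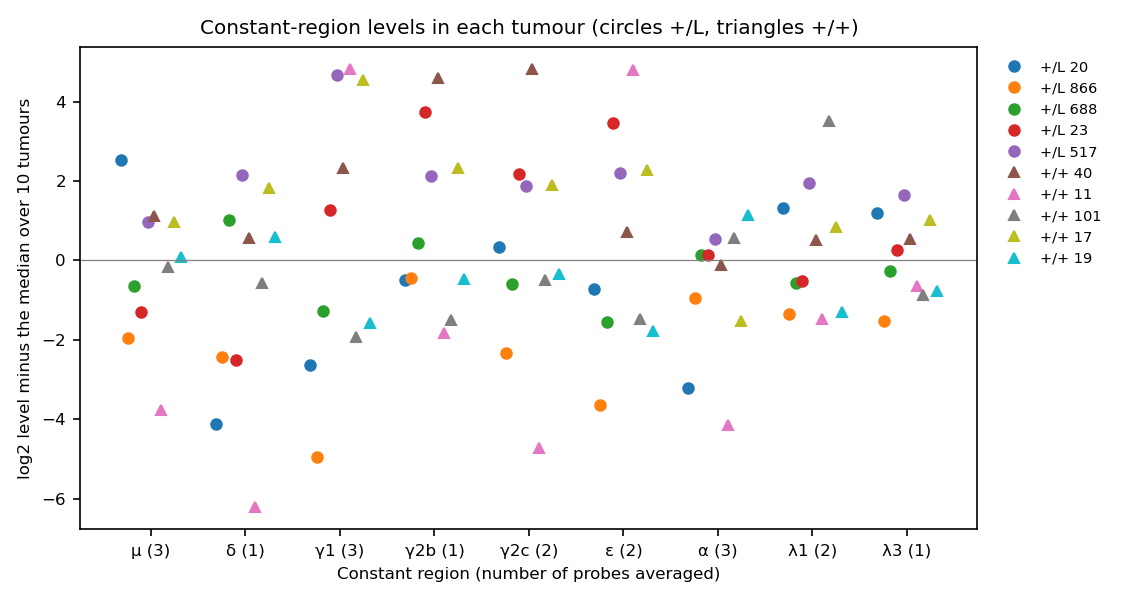
Deviation (log2 level minus the median over 10 tumours, averaged over the probes of a constant region) for each tumour, with circles for +/L and triangles for +/+ and the number of probes in brackets. The tumour at the top differs by region: +/L 20 for μ, +/+ 11 with +/L 517 and +/+ 17 for γ1, +/+ 40 for γ2b and γ2c, +/+ 11 for ε and +/+ 101 for λ1.

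Variable segments moved in 2 ways. In part the whole class was high or low in a tumour: the median deviation of the 43 VH probes ran from -4.68 (+/+ 11) to +3.03 (+/+ 40), and that of the 44 VK probes from -4.12 (+/+ 11) to +2.86 (+/L 517). In part single segments left their class. To show these, the tumour's class median was subtracted from the deviation. An offset of that tumour's array cancels from its levels in this difference, but array scaling still enters through the probe medians. A probe stood out in a tumour where the result was at least 2 and the tumour was well above background. Up to 7 VH and up to 5 VK probes stood out in a tumour, most in +/L 20 (6 VH and 5 VK) and +/+ 11 (7 VH and 3 VK) and none in +/L 517 or +/+ 101.

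**Figure D3:**
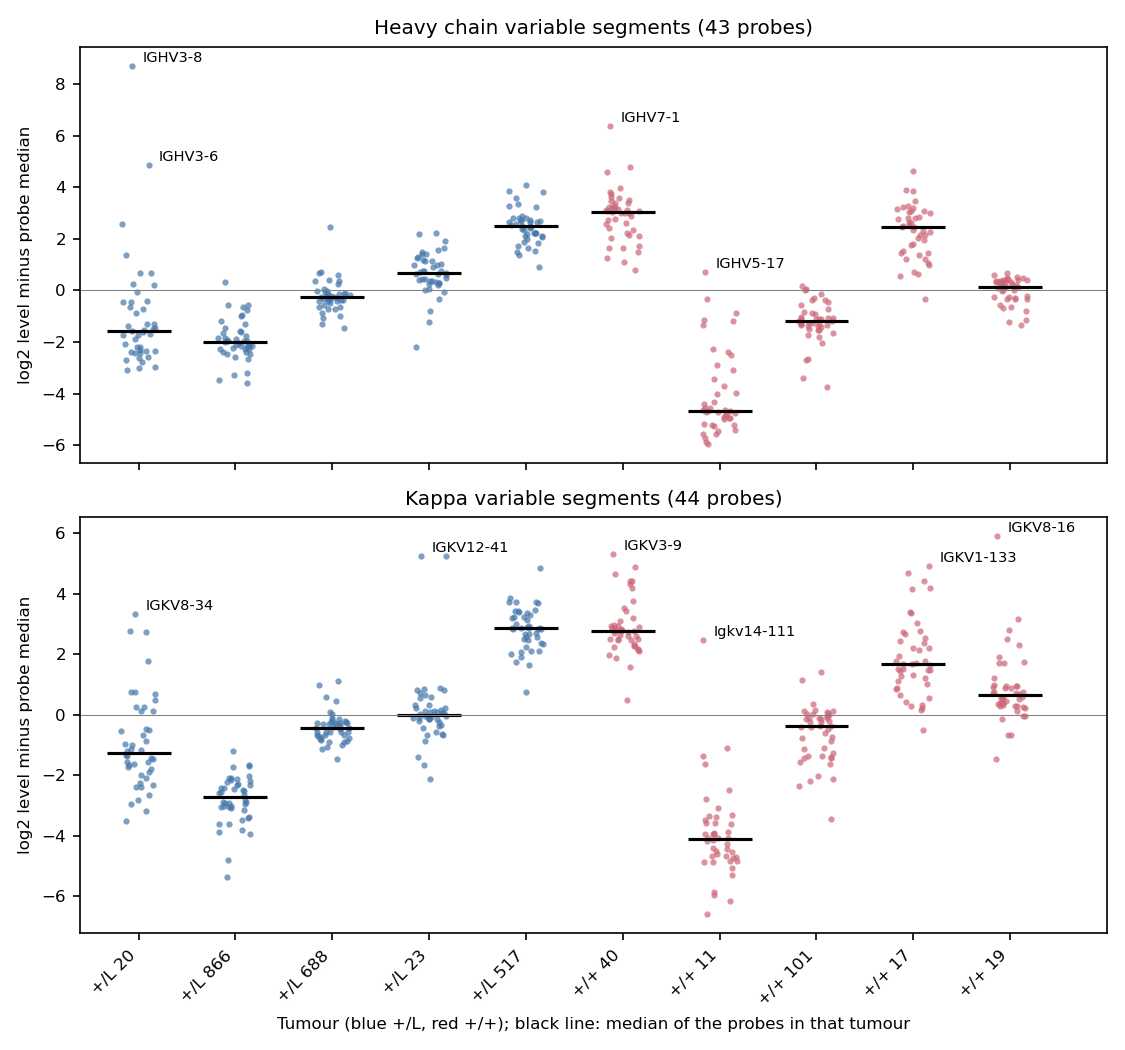
Deviation (log2 level minus the probe's median over 10 tumours) of each VH probe (top) and VK probe (bottom) in each tumour, blue for +/L and red for +/+, with a black line at the median of the class in that tumour. IGHV3-8 in +/L 20 lies 10.30 above its line, Igkv14-111 in +/+ 11 lies 6.58 above, and the 2 IGKV12-41 points in +/L 23 lie 5.25 and 5.26 above.

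IGHV3-8 had the largest lead of the set, in +/L 20. Its levels were 7.34, -1.95, -0.79, -3.56 and 2.44 in +/L 20, 866, 688, 23 and 517 and 2.36, -6.63, -2.54, 0.99 and -2.18 in +/+ 40, 11, 101, 17 and 19. +/L 20 was thus 4.90 above the next tumour, and 54 of all 26409 probes had a lead that large. IGHV3-8 lay 10.30 above the VH median of that tumour, which was itself low at -1.59. IGHV3-6, of the same family but with a different probe sequence, had levels of 3.65, -3.87, -1.85, 0.99 and 0.16 in the +/L tumours in the same order and 0.07, -6.79, -2.49, -0.57 and -2.36 in the +/+ tumours. Its lead was 2.66, again for +/L 20. The VK segments of +/L 20 farthest above the class median were IGKV8-34 (4.58), IGKV6-32 (4.02 in A_52_P112190, but 1.76 in the second probe of this segment, A_51_P305262) and a probe named Igh-6 that the files place among VK segments on chromosome 6 (A_52_P162637, 4.01). None of these 3 was led by 2 units.

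The array of +/L 20 also differed in other cell markers. Its score (mean deviation over the list) was +1.89 for 12 plasma cell genes, the highest of the 10 tumours, -0.83 for 14 B cell genes, -1.77 for 8 germinal centre genes and -1.85 for 10 T cell genes. Mzb1, a plasma cell chaperone for immunoglobulin, deviated by +2.71. Pigr, the epithelial receptor that carries polymeric antibodies, was well above background on 3 arrays only, so no deviation is given; its level in +/L 20 was 2.34. The part of these in the immunoglobulin values was not tested.

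+/+ 11 was the lowest tumour in 88 of the 112 members, and 81 were well above background there. Its class medians were -4.68 for VH and -4.12 for VK. Igkv14-111 was an exception, with levels of 0.60, -0.68, 3.23, 4.76 and 4.87 in +/L 20, 866, 688, 23 and 517 and 4.61, 6.58, 0.67, 3.62 and 6.62 in +/+ 40, 11, 101, 17 and 19. +/+ 11 and +/+ 19 were level at the top, 0.04 apart. Seen within the tumour, Igkv14-111 lay 6.58 above the VK median of +/+ 11 (4.15 in the deposited value table), while the IGKV10 probe that shares 22 bases with it lay at a level of -3.28 in that tumour, lowest of the 10.

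IGHV5-17 was the VH probe farthest above the class median in +/+ 11. Its levels were 0.94, 1.85, 3.19, 3.09 and 4.68 in the +/L tumours and 4.77, 3.84, 2.11, 3.85 and 2.45 in the +/+ tumours, in the order above. The tumour was thus in the upper range of this segment and not its highest, at 5.38 above its own VH median. In the deposited value table the height was 1.90. IGHV5S24, which resembles it closely, lay 3.53 above that median. The other 5 VH probes that stood out were at levels between -4.03 and 0.18. The lowest signal marked well above background on this array was at -5.35, and a fall below background is a bound. The germinal centre score of +/+ 11 was +1.64, the highest of the 10 tumours, and its B cell score was -0.28.

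IGKV12-41 marked +/L 23 with both of its probes. In A_51_P343336 the levels were 0.33, -0.78, 1.53, 7.05 and 4.32 in the +/L tumours 20, 866, 688, 23 and 517 and 4.53, -2.87, 0.37, 2.91 and 2.07 in the +/+ tumours 40, 11, 101, 17 and 19. In A_51_P444502 they were -2.24, -4.14, -2.72, 3.54 and 0.95, and 0.93, -5.01, -3.84, -0.49 and -1.19. The 2 probes, which share no sequence beyond 5 bases, gave leads of 2.52 and 2.59. The VK median of +/L 23 was -0.01, so IGKV12-41 was high while its class was not. No VH probe stood out in this tumour, and among the constant regions it was high in γ2b (+3.73) and ε (+3.46).

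IGKV8-16 was led by +/+ 19, where it lay 5.26 above the VK median. It also stood out in +/L 20, by 3.05. Its levels were -0.14, -5.55, -3.39, -2.81 and 1.45 in the +/L tumours and 0.24, -5.53, -4.12, -1.05 and 3.97 in the +/+ tumours, in the order above, a lead of 2.52. IGKV9-129 (2.52) and Igk-V19-14 (2.15) stood out in +/+ 19 as well. Igkv14-111 was as high in +/+ 19 as in +/+ 11. The VH probes of +/+ 19 lay between -1.35 and +0.68, with none standing out, and its T cell score, +1.32, was the highest of the 10.

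+/+ 17 was highest in several VK1 segments. The levels of IGKV1-133 were -0.63, -0.56, 1.60, 1.91 and 3.77 in the +/L tumours and 4.27, -3.29, 1.63, 6.68 and 2.72 in the +/+ tumours, a lead of 2.42. A probe named Igk-V (A_52_P829560), which overlaps it at chr6:67675592-67675651, had a lead of 2.18, and IGKV1-132 one of 2.09. These 3 probes share sequence and are not independent readings. Of other VK1 segments, IGKV1-35 lay 2.53 above the class median with a lead of 1.94, while IGKV1-135, a neighbour of IGKV1-133, lay at -0.01 from it. IGKV8-18, also led by this tumour (2.02), lay 3.0 above the class median at a level of 0.39. On the heavy chain side, AY173987 stood 2.19 above the VH median and γ1 deviated by +4.54.

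+/+ 40 led the most members and was the highest tumour in 43. It led the VH segment IGHV7-1 (lead 2.46), a probe named Igh-VJ558 (A_52_P226877, 2.49), and the VK segments IGKV3-9 (2.28) and IGKV3-1 (2.01), beside both γ2c probes. IGHV7-1 was well above background on 4 arrays only, with levels of -3.26, -7.30, -6.17, -5.52 and -3.50 in the +/L tumours and 0.52, -6.70, -6.22, -1.94 and -7.20 in the +/+ tumours. Since the class medians of this tumour were +3.03 and +2.76, IGHV7-1 lay 3.34 above the VH median and IGKV3-9 lay 2.55 above the VK median. IGKV3-1 lay 2.11 above the VK median. A_52_P226877 lay only 0.93 above the VH median and did not stand out in +/+ 40, whereas it stood out in +/L 20, by 2.26. IGHV7-1 also stood out in +/L 20, by 4.18 at a level of -3.26; its median over the tumours is itself at background, so these heights are not exact. +/L 517 was the highest tumour in 32 members and above the probe median in all 112, and yet led none: its VH and VK medians were +2.48 and +2.86, and no single segment stood out. Its macrophage score was -2.42, the lowest of the 10.

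Lambda probes parted in +/+ 101. The 2 probes at the λ1 constant region (A_51_P503756 and A_52_P450277, named Igl-V1 in the files) deviated there by +3.24 and +3.79, ahead of the next tumour by 1.47 and 1.69. The probe of the λ3 constant region (IGLC3) deviated by -0.87. Of the 6 lambda variable probes, 4 were high in this tumour (+2.35 to +2.82) and 2 low (-1.21 and -1.47). The overlapping pair shown above makes the contrast: the levels of A_52_P829408 were 3.96, 0.33, 1.59, 2.35 and 5.03 in the +/L tumours and 3.41, 1.03, 5.23, 4.34 and 1.20 in the +/+ tumours. Those of A_52_P672903 were 3.97, 0.57, 1.62, 2.25 and 5.24, and 3.45, 1.08, 0.47, 4.36 and 1.09. The other 9 tumours had the same order in both probes, and +/+ 101 was highest in the first and lowest in the second.

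**Figure D4:**
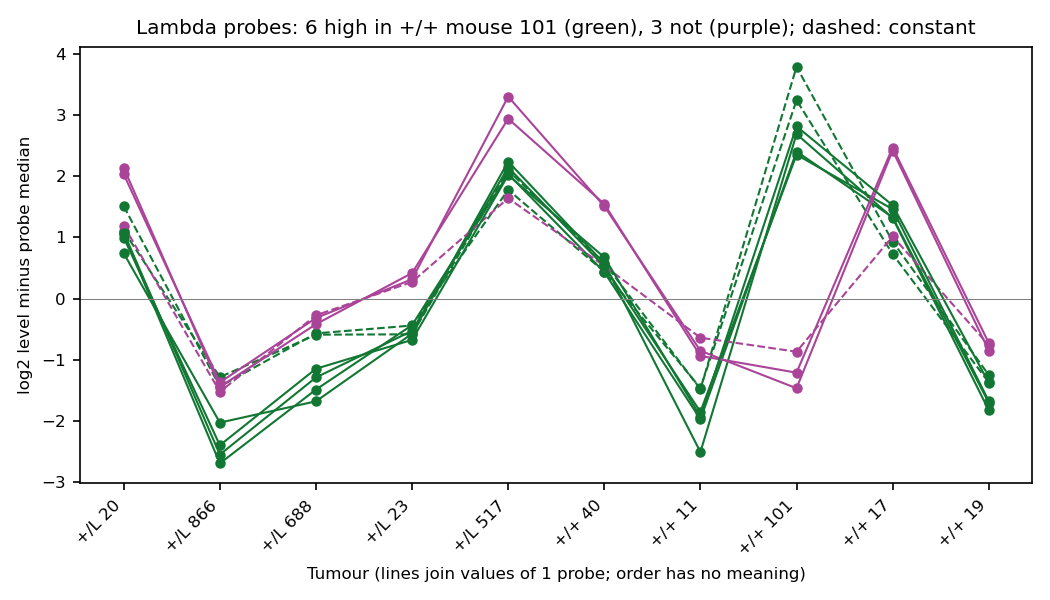
Deviation (log2 level minus the probe's median over 10 tumours) of the 9 lambda probes in each tumour, solid for variable and dashed for constant regions. The 6 green probes rise to between +2.35 and +3.79 in +/+ 101 and the 3 purple ones lie between -1.47 and -0.87; the colours were assigned by that difference.

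+/L 866 and +/L 688 led no member. +/L 866 was above the probe median in 1 of 112 members, with medians of -2.0 for VH and -2.73 for VK. That member was IGHV1-31, which lay 2.34 above the VH median at a level of -1.01. Its B cell score was the lowest of the 10, at -1.74, and Cd79a and Cd79b deviated by -2.67 and -2.53. +/L 688 lay near the median throughout (VH -0.26, VK -0.45), with δ at +1.02, its highest constant region, and 1 VH probe, of Ighv6-6, standing 2.74 above the class median at a low level of -1.70. That probe (A_51_P424199) was well above background on 5 arrays only. The second Ighv6-6 probe (A_52_P382676) lay 0.15 above the class median in this tumour.

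Of 19 genes of immunoglobulin assembly and secretion, 16 passed the filter; the recombinase genes Rag1 and Rag2 and the surrogate light chain gene Igll1 did not. In the genotype comparison 5 of the 16 were higher and 11 lower in +/L, with a median difference of -0.17, and 0 passed an adjusted p of 0.05 (limma; smallest adjusted p = 0.60). At an unadjusted p under 0.05 (limma) there was 1 of the 16, a share not above the 7.96% of all probes. It was Pou2f2, a transcription factor of immunoglobulin promoters, lower by -0.94. Between tumours, Jchain, which links polymeric antibodies, was lowest in +/L 866 (-2.43).

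No immunoglobulin probe separated the genotypes. Of the 112 members, 0 passed an adjusted p of 0.05 (limma), as did 0 of all 26409 probes (0%); the smallest adjusted p was 0.73 among members and 0.12 among all. At an unadjusted p under 0.05 there were 0 members, beside 7.96% of all probes (2103, of which 870 were higher and 1233 lower in +/L). By sign, 37 members were higher and 75 lower in +/L, with a median difference of -0.31, against 0.0055 over all probes. That median was 0.34 without +/+ 40, 0.22 without +/L 866 and 0.13 without +/+ 17, so its direction rests on single tumours. It was -1.02 without mice 20 and 11, 0.71 without mice 866 and 17, and 1.51 with the arrays of the latter 2 exchanged as the description labels would place them. Without +/+ 11, 3 members (2.68%) had an unadjusted p under 0.05, beside 8.06% of all probes in that fit, and without +/+ 101 there was 1 (0.893%, beside 4.83%). With the slide of the file names as a block 6 members (5.36%) had one, all lower in +/L, beside 7.04% of all probes, and with the arrays of mice 866 and 17 exchanged 6 had one, all higher, beside 3.81%. The groups did not overlap in 0 of 112 members, beside 1.79% of all probes.

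The standard error of the difference had a median of 1.42 over members and 0.34 over all probes, so that the 2 largest differences, 2.30 and -2.30, were little more than their standard errors of 2.18 and 1.99. These were in IGHV3-8, 0.69 ± 4.32 in +/L and -1.60 ± 3.50 in +/+ (SD, n = 5 each; exact permutation p = 0.36), and in γ1 (A_52_P1054013), 3.20 ± 3.80 and 5.51 ± 3.35 (exact permutation p = 0.29). The IGHV3-8 difference was 0.64 without +/L 20, 1.04 without +/+ 11, -0.62 without both and 3.61 without mice 866 and 17. For the 18 constant-region probes the differences ran from -2.30 to 0.45, with exact two-sided permutation p between 0.29 and 0.99; the smallest p that 252 splits of 5 and 5 allow is 0.0079.

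The probes of lowest p show the same overlap. IGHV3-6 was 2.25 higher in +/L (SE 1.54, limma adjusted p = 0.73), with +/L 20 at the top and +/+ 11 at the bottom; the difference was 1.29 without +/L 20, 1.16 without +/+ 11, 0.20 without both and 3.63 without mice 866 and 17. IGHV1S99 (A_52_P653565) was 1.16 higher, and its difference was 0.01 without +/+ 11, 0.53 without mice 20 and 11, 1.96 without mice 866 and 17 and -0.27 with age as a covariate. Igkv14-111 was lower by -1.86 (SE 1.38, limma adjusted p = 0.75), its 2 highest tumours being +/+ 11 and +/+ 19. That difference was -0.83 without mice 20 and 11, -1.25 without mice 866 and 17, -0.14 with the latter 2 arrays exchanged and -0.14 with age as a covariate. Of γ1, A_51_P461067 was lower by -2.18, and by -5.29, -1.81 and -3.20 within the 3 slides, each with at most 4 arrays. Slides were taken from the file names, which the header barcodes match for 2 slides; the arrays of the third carry no barcode. The differences of the 2 γ1 probes of lowest p were -0.90 and -0.93 without mice 20 and 11, and -0.38 and -0.47 without mice 866 and 17. With age as a covariate they were 0.14 and 0.10, and with the arrays of mice 866 and 17 exchanged 1.58 and 1.55.

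**Figure D5:**
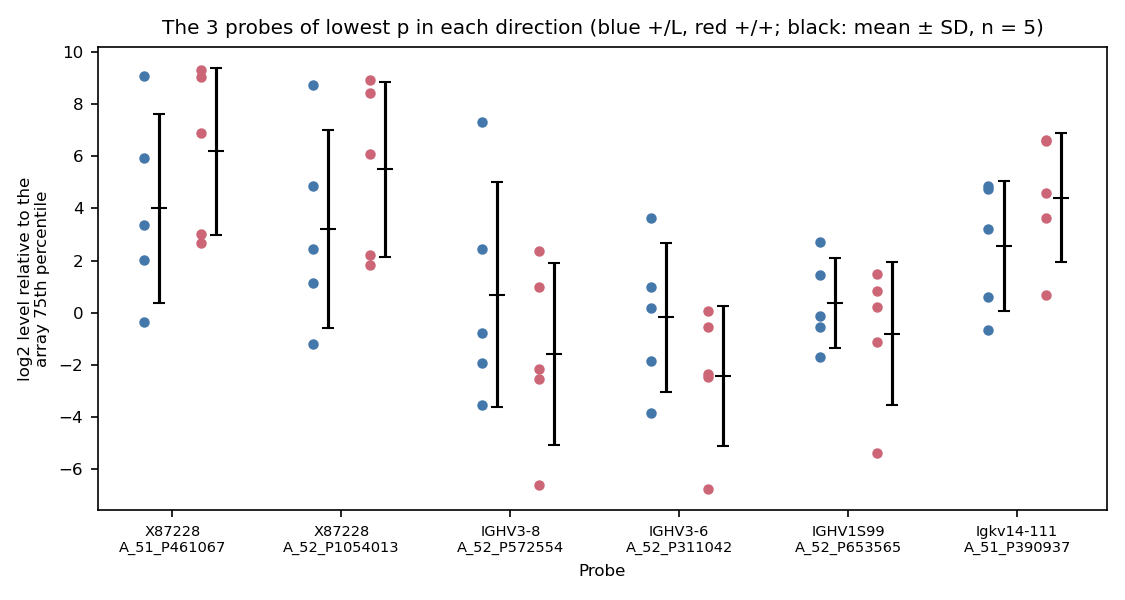
Log2 level relative to the array's 75th percentile in each tumour (blue +/L, red +/+; black: mean ± SD, n = 5) for the 3 immunoglobulin probes of lowest unadjusted p in each direction. In all 6 probes the groups overlap, and the lowest SD within a group is 1.73.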

How the data were processed

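Spot intensity values were deposited by the authors as scanner output of single-colour Agilent mouse arrays (Cy3), extracted with Agilent Feature Extraction per the file headers, whose processed signal is background-subtracted and detrended. A deposited table of log2 values made by the authors, of unstated scaling, served as an alternative. Each array had 45018 spots (43379 not controls, 41174 probes).

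Each level is the log2 processed signal scaled by subtracting the 75th percentile of non-control spots on that array. Control spots and outlier flags were left out, spots of a probe were averaged, and 26409 probes that the scanner software marked as over background in 3 or more of the 10 tumours were kept. The genotype contrast used limma 3.58.1 over all of them (linear model with moderated variances, no covariate), with Benjamini-Hochberg adjustment, and named values also with an exact permutation test. The procedure was tested on simulated data. Members, lists and marker genes were chosen with earlier results of these data known. Named were all constant-region probes, per tumour up to 3 variable segments of largest lead, and 3 probes of lowest p per direction; others, and the height over a tumour's class median, were chosen after their values were seen. Groups and mouse numbers come from the labels, and each array is a separate mouse. Positions are the files' mm9 positions; exon annotation was not used here. The number of arrays limits precision. Alternatives changed the normalization, background correction, filter, probe rule, lead threshold, slide block, age covariate and set of arrays. One gene of the lists is not reported here.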

Additional observations from a re-analysis of the deposited data

Results flagged for a closer look

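In the μ probe A_52_P571419 (IGHM), +/+ 11 lay far below the other +/+ tumours, at a level of 3.30 against 7.79 in the nearest. Of 62 groups of 5 tumours examined over 31 named probes, this was the 1 with such a gap, and chance gives about 1 in 20 groups.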

How the results depend on the processing

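The count of members past an adjusted p of 0.05 was 0 under every alternative run. At an unadjusted p under 0.05 the count was 2 without mice 20 and 11 (13.8% of all probes), 2 without mice 866 and 17 (6.79%), 6 with these 2 arrays exchanged (3.81%), 6 with the slide of the file names as a block (7.04%), and 0 to 3 with 1 tumour left out. The median genotype difference of the members was 0.71 without mice 866 and 17, 1.51 with their arrays exchanged, 0.53 with the slide of the description labels as a block, and -1.27 to 0.34 with 1 tumour left out. Single differences that changed sign were IGHV3-8 (-0.62 without mice 20 and 11), IGHV1S99 (-0.27 with age as a covariate) and γ1 (A_52_P1054013: 1.55 with mice 866 and 17 exchanged, 0.10 with age; A_51_P461067: 1.58 and 0.14). The number of members led by 1 tumour was 9 of 78 among those above background on all 10 arrays (0.871% of all probes), 34 at a lead of 1 (14.8% of all probes), 1 at a lead of 3 (1.21% of all probes) and 13 to 23 with 1 tumour left out. Of 302 values of single leads under an alternative, 294 stayed at 2 or more and 8, of 4 leads (IGKV3-1, IGHV7-1, IGKV8-18 and IGHE), fell below it. Many of the 302 could not fall. Leaving out a tumour other than the leader can only keep or raise a lead. A changed filter, probe rule or array label leaves it as it was. Only a changed normalization or background correction, or the deposited value table, could lower a lead. The height of 8 named probes over the class median, added after the values were seen, ran from 1.90 (IGHV5-17, deposited value table) to 10.99 (IGHV3-8) in 134 values. The cause of these changes was not tested. No paired analysis was possible because the mouse numbers are not shared between the genotypes. Signal over background limits the dim segments: a fall below background is a bound.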

Other observations

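Of 64 probes outside the set that the files place in the same 3 loci and that passed the filter, 4 (6.25%) were led by 1 tumour, beside 4.41% of all probes. +/L 20 led ENSMUST00000109712 (A_51_P244396), annotated as a rearranged heavy chain variable region, by 4.83 with a deviation of +7.11; 35 of 41 aligned bases match the IGHV3-8 probe, so the pair may read the same RNA. +/+ 40 led LOC100046496 (A_51_P196174) by 2.89 and NAP100137-001 (A_52_P240342) by 2.59. +/+ 17 led NAP004513-003 (A_52_P36023) by 2.31; 48 of 57 aligned bases match the IGKV1-132 probe.

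AF152371 (A_52_P238230), a kappa light chain mRNA that the files place at chr6:68207137-68207196, was compared by level; whether it reads a variable or the constant region of kappa was not checked here. AF152371 deviated by -0.15 in +/+ 11, where the VK median was -4.12, by +0.53 in +/L 20 and by -3.32 in +/L 866. The Igkv14-111 probe, placed close to it at chr6:68206771-68206830, deviated by +2.46, -3.52 and -4.80 in these tumours, in the same order. X67192 (A_52_P600555), which shares 38 bases with an IGKV12-41 probe, deviated by +2.60 in +/L 23 and was not highest there, whereas U26474 (A_51_P216387) was highest in +/L 23 at +3.66, by 0.84.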
